A study of Mus musculus with 6 samples.

Results

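The 47 genes described here encode the machinery that copies DNA in S phase, and were taken by symbol from the 28987 genes of the table. All 47 were found. RNA was sequenced from bone marrow cells of C57BL/6 mice with CBL and RUNX1 mutations, which model myelodysplastic syndrome, after treatment with Mdivi-1 or its vehicle. Mdivi-1, a small molecule, is known as an inhibitor of Drp1, the GTPase that splits mitochondria. The Ly6G+ cells, myeloid cells that carry the neutrophil antigen Ly6G, gave 2 libraries from Mdivi-1-treated and 2 libraries from vehicle-treated mice. The hematopoietic stem and progenitor cells (HSCPs), enriched through the stem cell factor receptor CD117, gave 1 library from a Mdivi-1-treated and 1 library from a vehicle-treated arm. Both populations were sorted for the mutant clone, so all 6 libraries share the CBL and RUNX1 mutations and no cells without them serve as a control. Age, dose, duration of treatment, the exact alleles and the number of mice behind each library are not stated in the sources used here. Marrow was taken from mice singly, per the labels, but which mouse gave which library is not said. The p-values therefore speak for the spread between libraries, part of which may be technical. For HSCPs, with 1 library per arm, the spread between replicates was not measured.

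DNA replication is prepared in G1, when the origin recognition complex, Cdc6 and Cdt1 load the ring-shaped MCM helicase onto origins. In S phase, Cdc45 and the GINS complex switch that helicase on, and primase, the replicative polymerases, the sliding clamp Pcna and its loaders copy the opened strands from nucleotides made by ribonucleotide reductase and its partners. Many of these genes are switched on together before S phase by E2F transcription factors, and in the marrow they are most active in dividing progenitors and early granulocyte precursors, whereas later neutrophil stages no longer divide.

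Promoter sequences were read because E2F factors are known to bind near the start sites of such genes. RefSeq windows on GRCm38.p6, from 250 bases before to 50 bases after a start, were available for 37 of the 47 genes and gave 43 windows. No entry was found for Tipin, Pole, Mcm4, Prim2, Rfc2, Ccne2, Dscc1, Gins1, Gins4 and Gins2. The E2F words TTTCCCGC, TTTCGCGC, TTTGCCGC and TTTGGCGC, searched on both strands, were in 15 of the 43 windows (34.9%), against 2.26% of all 32851 windows of that length. CCAAT, the word read by the factor NF-Y, was in 23 windows (53.5%), against 37.4% of all windows, and the GC box GGGCGG was in 32 windows (74.4%), against 35.7%. The word TTTGAA was in 5 windows (11.6%), against 17.9% of all windows. A match is a description of letters and not a measured binding site, and words of the E2F and CCAAT kinds can overlap. Windows of 6 genes are shown, 4 from the MCM helicase, chosen because they hold such words, and Pold1 and Pold2, subunits of 1 polymerase that differ in them. Capitals mark E2F words and CCAAT, with ATTGG its form on the other strand.
Mcm3, chr1:20820263-20820562, minus strand: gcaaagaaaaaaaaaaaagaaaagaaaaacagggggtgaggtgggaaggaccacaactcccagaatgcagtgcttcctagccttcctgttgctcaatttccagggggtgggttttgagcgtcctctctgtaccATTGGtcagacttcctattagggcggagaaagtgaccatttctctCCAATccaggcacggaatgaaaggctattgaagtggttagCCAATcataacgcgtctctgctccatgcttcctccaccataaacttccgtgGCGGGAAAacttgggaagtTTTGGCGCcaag
Mcm5, chr8:75109259-75109558, plus strand: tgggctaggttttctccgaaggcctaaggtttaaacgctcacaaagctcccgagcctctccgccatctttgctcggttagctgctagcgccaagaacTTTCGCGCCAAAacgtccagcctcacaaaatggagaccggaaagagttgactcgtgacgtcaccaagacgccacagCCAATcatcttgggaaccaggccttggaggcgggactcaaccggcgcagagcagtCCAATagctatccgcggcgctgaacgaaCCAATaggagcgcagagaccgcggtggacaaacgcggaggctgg
Mcm6, chr1:128359656-128359955, minus strand: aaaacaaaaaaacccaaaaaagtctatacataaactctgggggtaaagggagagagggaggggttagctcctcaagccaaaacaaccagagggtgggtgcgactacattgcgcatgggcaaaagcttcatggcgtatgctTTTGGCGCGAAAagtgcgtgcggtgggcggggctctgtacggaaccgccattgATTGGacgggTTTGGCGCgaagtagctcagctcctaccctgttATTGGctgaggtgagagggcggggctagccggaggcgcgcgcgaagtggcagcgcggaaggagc
Mcm7, chr5:138171834-138172133, minus strand: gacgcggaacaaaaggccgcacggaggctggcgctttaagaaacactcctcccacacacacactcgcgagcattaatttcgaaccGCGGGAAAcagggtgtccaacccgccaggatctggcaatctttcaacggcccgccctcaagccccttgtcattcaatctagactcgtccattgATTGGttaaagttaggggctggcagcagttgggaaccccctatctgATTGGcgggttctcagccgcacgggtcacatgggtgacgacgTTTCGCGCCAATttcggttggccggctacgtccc
Pold1, chr7:44548766-44549065, minus strand: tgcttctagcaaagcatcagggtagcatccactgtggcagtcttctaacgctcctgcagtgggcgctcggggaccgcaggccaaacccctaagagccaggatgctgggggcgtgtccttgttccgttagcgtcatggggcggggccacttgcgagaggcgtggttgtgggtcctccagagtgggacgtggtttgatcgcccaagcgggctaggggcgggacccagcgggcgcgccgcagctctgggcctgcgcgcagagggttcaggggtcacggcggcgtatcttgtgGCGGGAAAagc
Pold2, chr11:5878207-5878506, minus strand: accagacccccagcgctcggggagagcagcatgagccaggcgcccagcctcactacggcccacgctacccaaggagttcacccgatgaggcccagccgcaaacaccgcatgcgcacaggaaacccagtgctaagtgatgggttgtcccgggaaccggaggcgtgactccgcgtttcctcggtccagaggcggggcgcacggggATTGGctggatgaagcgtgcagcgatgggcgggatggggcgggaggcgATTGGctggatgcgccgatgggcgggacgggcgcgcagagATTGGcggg
The windows shown for Mcm3, Mcm5, Mcm6 and Mcm7 hold 2 E2F words or more each, Pold1 holds 1, and Pold2 holds none of them but holds CCAAT on the other strand in 3 places. The window of Mcm2 holds no E2F word, nor does the second window of Mcm7, and the second window of Pold2 holds neither an E2F word nor CCAAT. Set beside the difference between populations, the ranges with and without these letters overlapped. The 15 genes with an E2F word had a median log2 difference, Ly6G+ minus HSCP, of -1.32 (range -1.70 to -0.59), and the 22 genes with a window but no such word had a median of -1.24 (range -2.22 to -0.70). The genes lie on 16 chromosomes, with the most on chromosome 5 (8 genes), chromosome 8 (6 genes) and chromosome 7 (5 genes).

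Every one of the 47 replication genes was lower in Ly6G+ cells than in HSCPs, by limma on log2(TPM + 1) over 12338 genes at an adjusted p below 0.05. TPM, the unit of the table, is a length-corrected share of all transcripts, and the differences in the text are log2 values after 1 TPM is added. Genes called lower made up 50.3% of all genes tested, and genes called higher, 0 of these 47, made up 22.2%. The summed level of the 47 genes was 1870.4 and 1880.5 TPM in Ly6G+ Mdivi-1 and 1894.3 and 1951.2 TPM in Ly6G+ vehicle libraries, against 4694.2 TPM in HSCP Mdivi-1 and 4305.1 TPM in HSCP vehicle. The Ly6G+ sum was thus 42.2% of the HSCP sum, and replication genes held between 0.191% and 0.199% of all TPM in Ly6G+ libraries, against 0.486% and 0.447% in HSCP Mdivi-1 and vehicle. In bulk RNA, fewer S-phase cells and less of these transcripts per cell cannot be told apart.

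The median log2 difference of the 47 genes was -1.21, against -0.35 over all genes tested, and single genes lay between -2.22 (Pold2) and -0.58 (Gins4). A fall of 2-fold or more was called in 38 of the 47 genes, against 19.6% of all genes, and the other 9 genes fell by less. That count depends on the scaling: in a check added after the data were seen, it was 19 of the 47 with median-of-ratios scaling, against 9.75% of all genes, and 20 with upper-quartile scaling, against 10.7%. In all 47 the 4 Ly6G+ libraries lay below both HSCP libraries, which held for 52.5% of all genes tested. Scaling the libraries by the median of gene ratios moved the median of all genes to -0.03 and that of the 47 genes to -0.88, and all 47 were still called lower. Adjusted p-values from limma ran between 8.15e-06 and 0.000751. They rest on a fit with 1 shared Mdivi-1 effect for both populations and no replicates within an HSCP arm.

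**Figure D1:**
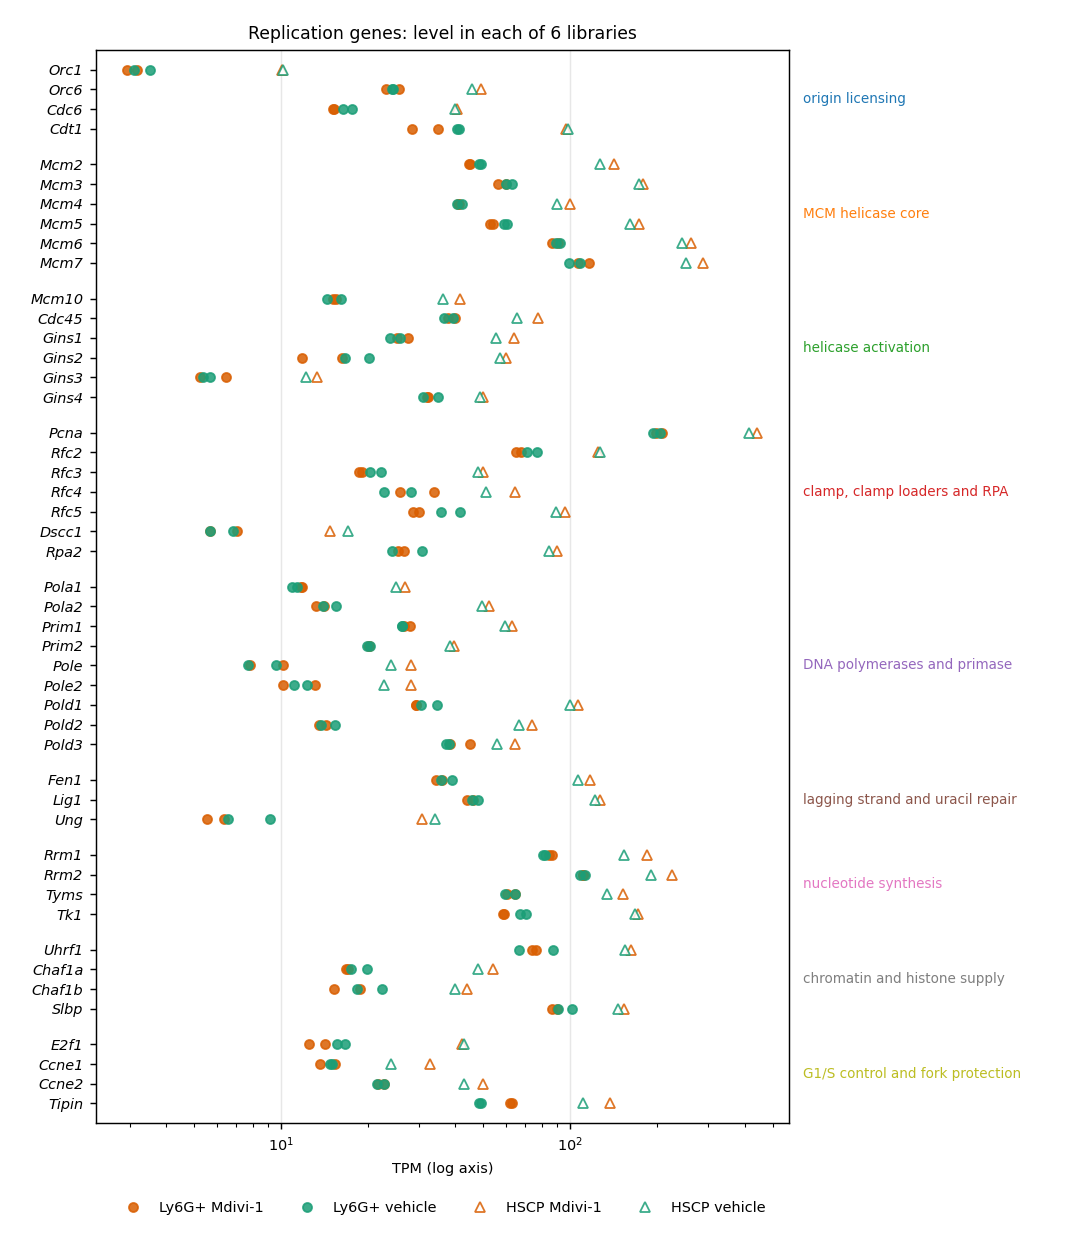
Level of each of the 47 replication genes in TPM on a log axis, 1 point per library, with Ly6G+ libraries as filled circles and HSCP libraries as open triangles, grouped by role. The 4 Ly6G+ points lie left of both HSCP points in all 47 rows, while the orange Mdivi-1 and green vehicle points of a population mostly lie close together.

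The origin licensing genes are Orc1 and Orc6, subunits of the origin recognition complex, and Cdc6 and Cdt1, the loaders of the MCM ring. All 4 fell in Ly6G+ cells, with a summed level at 41.0% of that in HSCPs. Cdt1 was at 35.0 and 28.4 TPM in Ly6G+ Mdivi-1 and 40.5 and 41.4 TPM in Ly6G+ vehicle libraries, against 96.8 and 97.9 TPM in HSCP Mdivi-1 and vehicle. Its difference between populations was -1.41 ± 0.115 (SE, adjusted p = 7.38e-05 by limma). Orc6 was the best kept of the group, at 23.1 and 25.5 TPM in Ly6G+ Mdivi-1 and 24.5 and 24.3 TPM in Ly6G+ vehicle, against 49.1 and 45.8 TPM in HSCP Mdivi-1 and vehicle. Orc1, the only one of the 47 genes below 5 TPM in every Ly6G+ library, was at 2.95 to 3.54 TPM there, against 10.1 and 10.2 TPM in HSCP Mdivi-1 and vehicle. Both Mdivi-1 libraries lay below both vehicle libraries in Ly6G+ cells for Cdc6 and Cdt1, with changes of -0.15 and -0.37 that did not pass the test (adjusted p = 0.318 and 0.122 by limma).

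The MCM core, 6 proteins that form the replicative helicase ring, fell as a group to 36.6% of its summed HSCP level. Mcm7 was its most abundant member, with 106 and 116 TPM in Ly6G+ Mdivi-1 and 99.0 and 108 TPM in Ly6G+ vehicle libraries, against 287 and 252 TPM in HSCP Mdivi-1 and vehicle. Mcm5 had the largest difference, at 54.2 and 52.8 TPM in Ly6G+ Mdivi-1 and 59.0 and 60.5 TPM in Ly6G+ vehicle, against 173 and 161 TPM in HSCP Mdivi-1 and vehicle. These gave -1.32 ± 0.0677 for Mcm7 and -1.55 ± 0.0759 for Mcm5 (SE, adjusted p = 1.54e-05 and 1.39e-05 by limma). The 6 members stayed within a narrow band, between 33.9% and 43.5% of their HSCP levels, with Mcm4 the least reduced at 43.5%. Of the 31-base words in Mcm7 transcripts, 66.6% occur in no other gene. Gm5487 and Ap4m1 are the genes that share the most of the others. Ap4m1 and Cops6 overlap Mcm7 on the opposite strand, so its level is less certain.

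The genes that turn the ring into an active helicase were less even. Cdc45, which travels with the helicase, had 40.0 and 37.7 TPM in Ly6G+ Mdivi-1 and 36.6 and 39.3 TPM in Ly6G+ vehicle libraries, against 77.5 and 65.4 TPM in HSCP Mdivi-1 and vehicle. The GINS subunit Gins2 was at 16.2 and 11.8 TPM in Ly6G+ Mdivi-1 and 16.6 and 20.1 TPM in Ly6G+ vehicle, against 59.8 and 57.1 TPM in HSCP Mdivi-1 and vehicle. Gins4, its partner in the same complex, was at 32.1 and 32.2 TPM in Ly6G+ Mdivi-1 and 31 and 34.9 TPM in Ly6G+ vehicle, against 49.8 and 48.8 TPM in HSCP Mdivi-1 and vehicle. Gins2 thus kept 27.7% and Gins4 66.1% of the HSCP level, the widest gap among subunits of the helicase. Only 33.8% of the 31-base words of Gins2 transcripts are unique to it, because the gene Gse1 overlaps it on the opposite strand, which limits what can be read from the Gins2 value. Gins1 (42.9% of the HSCP level), Gins3 (44.7%) and Mcm10 (39.3%), which helps to activate the helicase, lay between them.

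Pcna, the sliding clamp that holds polymerases on DNA, was the most abundant of the 47 genes. It was at 198 and 207 TPM in Ly6G+ Mdivi-1 and 205 and 193 TPM in Ly6G+ vehicle libraries, against 443 and 413 TPM in HSCP Mdivi-1 and vehicle, a difference of -1.09 ± 0.0577 (SE, adjusted p = 1.71e-05 by limma). Of its 31-base words, 76.7% are unique, and the pseudogene Pcna-ps2 is the gene that shares the most of the others. Among the subunits of replication factor C, which loads the clamp, Rfc2 kept 55.4% and Rfc5 36.8% of the HSCP level. Exons of Lat2, Wsb2 and Eif4a2 overlap Rfc2, Rfc5 and Rfc4 on the opposite strand. Of their 31-base words 80.7%, 80.7% and 89.5% are unique, which limits the contrast between subunits. Rfc5 had 28.6 and 30.1 TPM in Ly6G+ Mdivi-1 and 35.7 and 41.5 TPM in Ly6G+ vehicle, against 95.6 and 89.3 TPM in HSCP Mdivi-1 and vehicle. Rfc4 varied between libraries of an arm, with 25.9 and 33.8 TPM in Ly6G+ Mdivi-1 and 28.2 and 22.8 TPM in Ly6G+ vehicle, against 64.6 and 51.1 TPM in HSCP Mdivi-1 and vehicle. Rpa2, a subunit of the protein that coats single-stranded DNA, was the most reduced of the group. Its levels were 25.3 and 26.7 TPM in Ly6G+ Mdivi-1 and 24.2 and 30.7 TPM in Ly6G+ vehicle, against 90.1 and 84.4 TPM in HSCP Mdivi-1 and vehicle, or -1.67 ± 0.105 (SE, adjusted p = 2.85e-05 by limma). Rfc3 (40.8%) and Dscc1 (39.8%), part of an alternative clamp loader, were close to the middle of the group.

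The polymerase and primase genes spanned nearly the whole range of the 47. Pold2, an accessory subunit of DNA polymerase delta (ENSMUSG00000020471, chr11:5872180-5878292 on mm10), showed the largest difference of all. It had 13.5 and 14.3 TPM in Ly6G+ Mdivi-1 and 15.4 and 13.8 TPM in Ly6G+ vehicle libraries, against 73.8 and 66.5 TPM in HSCP Mdivi-1 and vehicle. The difference was -2.22 ± 0.0866 (SE, adjusted p = 8.15e-06 by limma), which left 20.3% of the HSCP level. Pold1, the catalytic subunit of the same enzyme, had 29.2 and 29.3 TPM in Ly6G+ Mdivi-1 and 30.6 and 34.7 TPM in Ly6G+ vehicle, against 106 and 99.6 TPM in HSCP Mdivi-1 and vehicle. Pold3, a further accessory subunit, had 45.1 and 38.4 TPM in Ly6G+ Mdivi-1 and 38.0 and 37.1 TPM in Ly6G+ vehicle, against 64.6 and 55.7 TPM in HSCP Mdivi-1 and vehicle. Subunits of 1 enzyme thus kept 20.3%, 30.1% and 66.0% of their HSCP levels. In polymerase alpha, which extends RNA primers, the catalytic Pola1 kept 44.2% and the accessory Pola2 27.9%, while the primase subunits Prim1 and Prim2 kept 43.8% and 51.7%. The catalytic Pole of polymerase epsilon kept 33.8%, and its partner Pole2 kept 46.0%, with 10.2 and 13.1 TPM in Ly6G+ Mdivi-1 and 12.3 and 11.1 TPM in Ly6G+ vehicle, against 28.1 and 22.7 TPM in HSCP Mdivi-1 and vehicle.

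**Figure D2:**
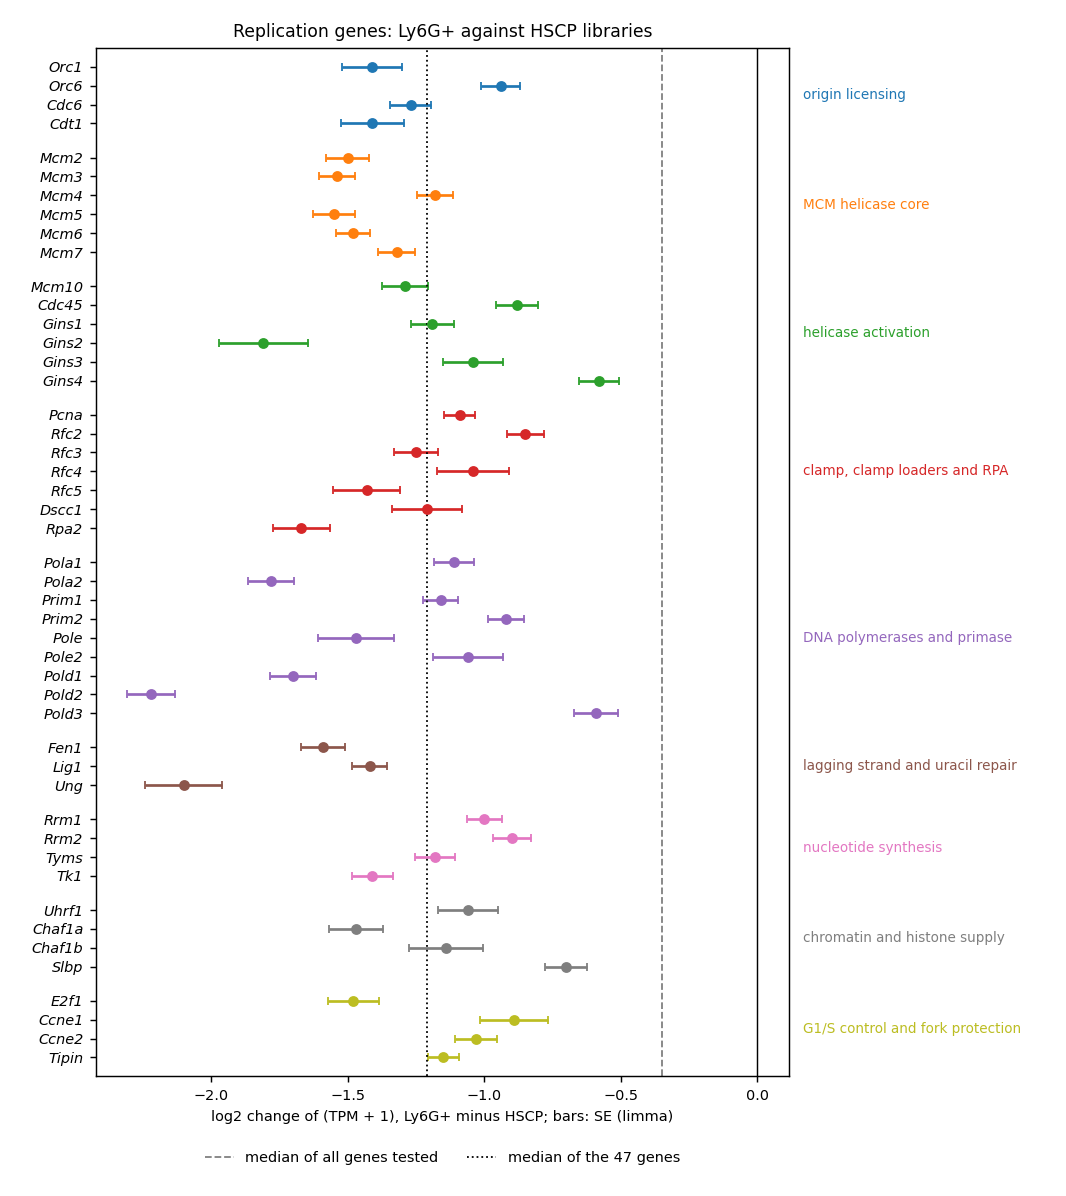
Log2 difference, Ly6G+ minus HSCP, on log2(TPM + 1) for each of the 47 replication genes, with points from limma, bars for its SE and colours for the roles. All points lie left of 0 and left of the dashed line at -0.35, the median of all genes tested, from Pold2 at -2.22 to Gins4 at -0.58, and the dotted line marks the median of the 47 at -1.21.

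Lig1, which seals Okazaki fragments, Fen1, which trims their flaps, and Ung, which removes uracil from DNA, had the lowest summed level relative to HSCPs of any role, at 33.2%. Lig1 had 43.9 and 46.0 TPM in Ly6G+ Mdivi-1 and 45.7 and 48.0 TPM in Ly6G+ vehicle libraries, against 127 and 122 TPM in HSCP Mdivi-1 and vehicle. Ung had 5.54 and 6.37 TPM in Ly6G+ Mdivi-1 and 6.59 and 9.16 TPM in Ly6G+ vehicle, against 30.8 and 34.2 TPM in HSCP Mdivi-1 and vehicle, or -2.10 ± 0.141 (SE, adjusted p = 3.52e-05 by limma). At 21.3% of the HSCP level, Ung was next to Pold2 among the most reduced genes. Fen1 stood at 32.6%, but only 20.4% of its 31-base words are unique, since Gm10143 and Tmem258 overlap it on the opposite strand.

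The genes for nucleotide supply stayed among the most abundant of the 47 in Ly6G+ cells. Rrm2, the small subunit of ribonucleotide reductase that rises in S phase, had 111 and 111 TPM in Ly6G+ Mdivi-1 and 112 and 108 TPM in Ly6G+ vehicle libraries, against 225 and 190.1 TPM in HSCP Mdivi-1 and vehicle. Its large subunit Rrm1 had 86.3 and 84.5 TPM in Ly6G+ Mdivi-1 and 81.8 and 80.8 TPM in Ly6G+ vehicle, against 184 and 153 TPM in HSCP Mdivi-1 and vehicle. They kept 53.2% and 49.4% of their HSCP levels. The thymidine kinase gene Tk1, of the salvage route, fell further, with 59.0 and 58.6 TPM in Ly6G+ Mdivi-1 and 70.2 and 67.0 TPM in Ly6G+ vehicle, against 172 and 168 TPM in HSCP Mdivi-1 and vehicle. It kept 37.4%, against 43.6% for Tyms, the thymidylate synthase of the de novo route.

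Among genes that supply and rebuild chromatin, Slbp, which binds the stem loop of histone mRNAs, was the best kept at 61.5% of its HSCP level. It had 86.6 and 90.0 TPM in Ly6G+ Mdivi-1 and 101 and 90.5 TPM in Ly6G+ vehicle libraries, against 153 and 146 TPM in HSCP Mdivi-1 and vehicle. Chaf1a and Chaf1b, subunits of the chromatin assembly factor that places histones on new DNA, kept 34.9% and 44.3%. Chaf1a had 16.8 and 17.0 TPM in Ly6G+ Mdivi-1 and 17.5 and 19.9 TPM in Ly6G+ vehicle, against 54.1 and 48.1 TPM in HSCP Mdivi-1 and vehicle. Chaf1b had 15.3 and 18.7 TPM in Ly6G+ Mdivi-1 and 18.3 and 22.3 TPM in Ly6G+ vehicle, against 44.1 and 40.0 TPM in HSCP Mdivi-1 and vehicle. Of the 31-base words of Chaf1a, 49.0% are unique, as Ubxn6 overlaps it on the opposite strand. Uhrf1, which helps to copy DNA methylation onto new strands, kept 48.0%, with 75.8% of its words unique.

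Among the 47 genes, the regulators of S-phase entry were lower as well, whereas E2f2, outside the 47, was higher (given below). E2f1, an activating E2F factor, had 14.2 and 12.5 TPM in Ly6G+ Mdivi-1 and 16.7 and 15.6 TPM in Ly6G+ vehicle libraries, against 42.2 and 43.1 TPM in HSCP Mdivi-1 and vehicle. Ccne1, the cyclin E that drives Cdk2 at the G1/S boundary, had 13.6 and 15.4 TPM in Ly6G+ Mdivi-1 and 14.8 and 15.0 TPM in Ly6G+ vehicle, against 32.8 and 24.0 TPM in HSCP Mdivi-1 and vehicle. E2f1 kept 34.6% of its HSCP level, Ccne1 51.7%, its paralog Ccne2 47.8%, and Tipin, a fork protection factor that partners the Timeless protein, 44.8%. In the order of all 47 genes by the share of the HSCP level kept, 4 kept under 30%, namely Pold2, Ung, Gins2 and Pola2. Another 34 kept between 30% and 50%, and 9 kept more, namely Gins4, Pold3, Slbp, Rfc2, Cdc45, Rrm2, Ccne1, Prim2 and Orc6. These shares are of TPM as deposited, as are those given gene by gene. After median-of-ratios scaling 2 genes kept under 30%, 17 kept between 30% and 50% and 28 kept more, from 26.1% for the lowest to 85.1% for the highest. Of the 46 steps between neighbours in the order of log2 differences, 2 were larger than the combined SE of the pair, so the order of neighbouring genes is mostly not resolved.

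Ratios between genes of the same complex, pathway or role show the same unevenness within single libraries, where scaling cancels. Of 22 pairs, chosen after the levels had been seen, 18 had ratios that did not overlap between populations and 4 had ratios that did. Over all 1081 pairs among the 47 genes the share without overlap was 67.3%, so the 18 are read as a description of these pairs. Pold2 relative to Pold1 was 0.397 to 0.503 in Ly6G+ libraries, against 0.668 to 0.698 in HSCP libraries. Pold3 relative to Pold1 went the other way, at 1.07 to 1.54 in Ly6G+ libraries, against 0.560 to 0.611 in HSCP libraries, so that Pold3 was above Pold1 in every Ly6G+ library and below it in both HSCP libraries. Gins2 relative to Gins4 crossed 1 in the opposite sense, at 0.366 to 0.576 in Ly6G+ libraries, against 1.17 to 1.20 in HSCP libraries. This ratio is less certain, since Gse1 overlaps Gins2 on the opposite strand and 33.8% of the 31-base words of Gins2 are unique. Orc6 relative to Orc1 was 6.86 to 8.63 in Ly6G+ libraries, against 4.51 to 4.84 in HSCP libraries, and Pola2 relative to Pola1 was 1.12 to 1.36, against 1.95 to 1.98. Within the MCM ring, Mcm2, Mcm3, Mcm5 and Mcm6 were each lower relative to Mcm4 in every Ly6G+ library than in either HSCP library. Mcm7 relative to Mcm4 overlapped, at 2.43 to 2.82 in Ly6G+ libraries, against 2.79 to 2.89 in HSCP libraries.

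**Figure D3:**
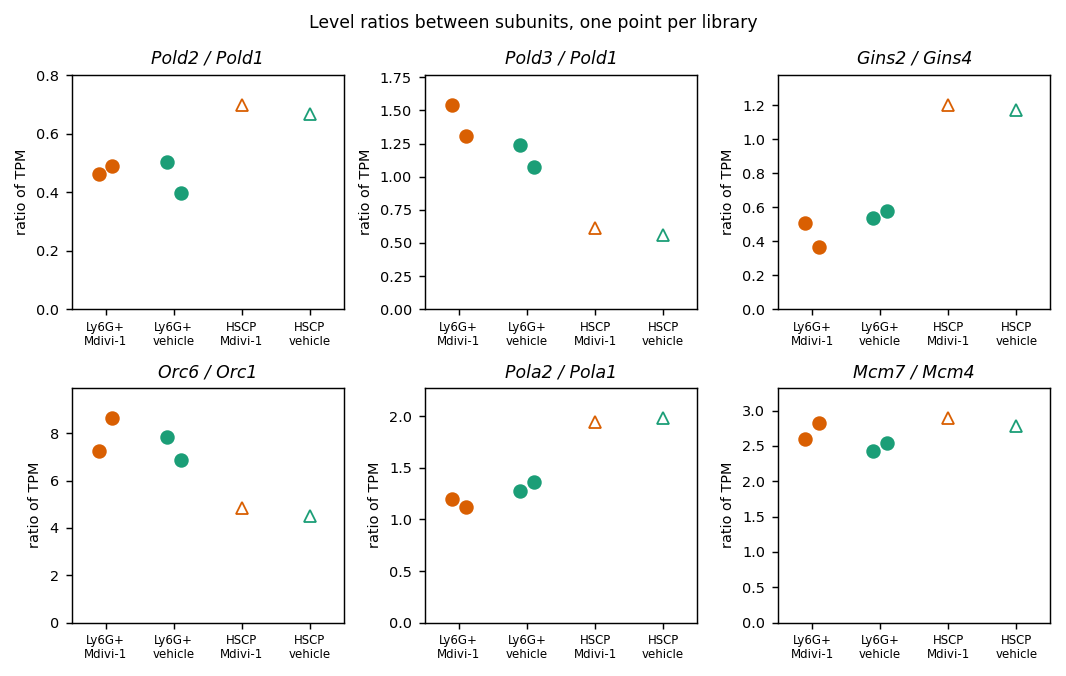
Ratio of TPM between partner genes, 1 point per library, on linear axes that start at 0, with Ly6G+ libraries as filled circles and HSCP libraries as open triangles. The populations do not overlap for Pold2/Pold1, Pold3/Pold1, Gins2/Gins4, Orc6/Orc1 and Pola2/Pola1, and they overlap for Mcm7/Mcm4 (2.43 to 2.82 in Ly6G+, 2.79 to 2.89 in HSCP). The Gins2 level is less certain, since Gse1 overlaps it on the opposite strand.

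Mdivi-1 was compared with vehicle within Ly6G+ cells over 11775 genes and 4 libraries, and the replication genes moved little. These are the same libraries as in the comparison of populations. Of the 47 genes, 1 rose (2.46% of all genes tested), 0 fell (4.24% of all genes), and 46 did not pass the test, by limma at an adjusted p below 0.05. At an unadjusted p below 0.05 there were 6 of the 47 and 3026 genes in all. The median change of the 47 was -0.03, against -0.05 over all genes, with 18 above 0 and 29 below and a range of -0.38 to 0.35. Under scaling by the median of gene ratios the median of the 47 was 0.03, so no direction is read from it.

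Tipin was the gene that rose (ENSMUSG00000032397, chr9:64281581-64305424 on mm10). It had 63.0 and 61.8 TPM in Ly6G+ Mdivi-1 libraries, against 48.3 and 49.2 TPM in Ly6G+ vehicle libraries, an increase of 0.35 ± 0.0576 (SE, adjusted p = 0.0364 by limma), and higher in both Mdivi-1 libraries than in both vehicle libraries. In HSCPs it was at 137 TPM with Mdivi-1 and 111 TPM with vehicle, a log2 ratio of 0.30 with no replicate check. The call depended on the setting. Among 11 alternative settings the Ly6G+ change stayed between 0.34 and 0.41, but it passed the threshold in 4 and missed it in 7, with adjusted p between 0.023 and 0.168, and leaving out any 1 of the 4 libraries, of either arm, gave 0.112 to 0.168.

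No other replication gene passed, and the largest changes were decreases. Rfc5 changed by -0.38 ± 0.093 (adjusted p = 0.0837 by limma), Gins2 by -0.38 ± 0.174 (0.252), Cdt1 by -0.37 ± 0.11 (0.122), Ung by -0.34 ± 0.174 (0.294), E2f1 by -0.25 ± 0.0972 (0.187) and Tk1 by -0.22 ± 0.0590 (0.101). In each of these 6 both Mdivi-1 libraries lay below both vehicle libraries. Chaf1b changed by -0.24 ± 0.14 (0.350), and its arms overlapped. Across the 47 genes the arms did not overlap with Mdivi-1 lower in 15, against 36.7% of all genes, and with Mdivi-1 higher in 5 (Pola1, Prim1, Pold3, Rrm1 and Tipin), against 21.0% of all genes. Both shares of the 47, 31.9% and 10.6%, were below those of all genes. The split depends on scaling: with the median of gene ratios, a check added after the data were seen, 9 genes were lower, against 27.8% of all genes, and 12 were higher, against 29.2%. Cdc6, Cdt1, Mcm2, Mcm5, Rfc2, Rfc3, Rfc5, Tk1 and E2f1 lay below vehicle without overlap under both scalings.

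In HSCPs, where each arm held 1 library, none of the 47 genes differed by 1.5-fold in either direction, a size that 1.32% of 9482 genes at a mean of 5 TPM or more passed upward and 2.45% downward. The log2 ratio, Mdivi-1 over vehicle, was above 0 in 41 of the 47 genes, against 57.3% of all genes, with a median of 0.10, against 0.03 over all genes. The 6 genes below 0 were Dscc1, Ung, E2f1, Cdt1, Rfc2 and, by less than the rounding, Orc1. The largest ratio was that of Ccne1, at 0.44 (32.8 TPM with Mdivi-1 and 24.0 TPM with vehicle), followed by Rfc4 at 0.33, Pole2 and Tipin at 0.30, and Rrm1 at 0.26. The lowest was that of Dscc1 at -0.19. By role, the median ratio was 0.25 in the S-phase entry and fork protection genes, 0.21 in nucleotide supply, 0.12 in the MCM core and 0.01 in origin licensing.

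The typical size of these ratios is close to the spread between Ly6G+ libraries of 1 arm. The median absolute log2 difference over the 47 genes was 0.107 between the HSCP libraries, which differ in treatment. Within an arm it was 0.072 between the Ly6G+ Mdivi-1 libraries and 0.113 between the Ly6G+ vehicle libraries. Between the Ly6G+ vehicle libraries, which share a treatment, 32 of the 47 genes were higher in the second and 15 in the first. For the Ly6G+ Mdivi-1 libraries these counts were 27 and 20. The HSCP libraries split further, with 41 genes higher with Mdivi-1 and 6 with vehicle. With no replicate in HSCPs, the difference carries no test.

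**Figure D4:**
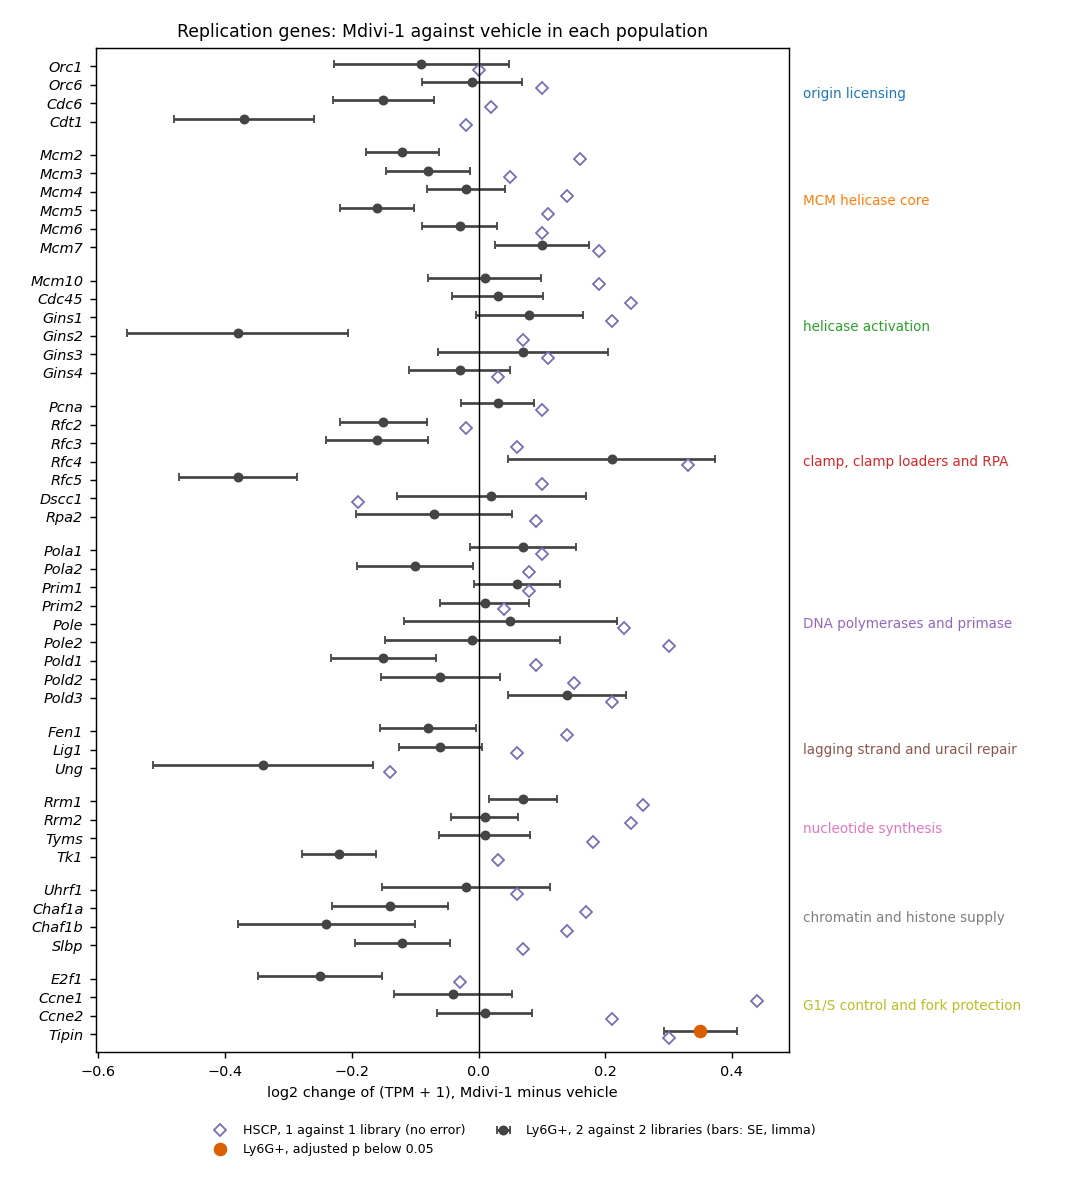
Log2 change of (TPM + 1), Mdivi-1 minus vehicle, for each of the 47 replication genes, with circles and SE bars from limma for Ly6G+ cells (2 against 2 libraries) and open diamonds without error for HSCPs (1 against 1 library). Tipin at 0.35, in orange, is the gene that passed the test in Ly6G+ cells, and 41 of the 47 diamonds lie above 0.

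Replication genes outside the 47 were read for comparison, 55 genes of the same machinery and of nucleotide metabolism. Between populations 47 of them were lower in Ly6G+ cells, against 50.3% of all genes, and 4 were higher, against 22.2%. Another 4 did not pass (Orc4, Mcmbp, Donson and Chtf8), and the median of the list was -0.92. The most reduced were Cad and Ctps, of pyrimidine synthesis, at -1.86 and -1.80, Dut, which removes dUTP, at -1.65, and Rnaseh2a, a ribonuclease H2 subunit, at -1.62. The 4 that were higher were Samhd1, which breaks down deoxynucleotides, at 1.85, Rrm2b, the ribonucleotide reductase subunit used outside S phase, at 1.28, E2f2 at 0.49 and the salvage kinase Dck at 0.29. Samhd1 stood at 558 and 547 TPM in Ly6G+ Mdivi-1 and 508 and 522 TPM in Ly6G+ vehicle libraries, against 144 and 151 TPM in HSCP Mdivi-1 and vehicle. Rrm2b stood at 14.9 and 15.8 TPM in Ly6G+ Mdivi-1 and 15.0 and 12.8 TPM in Ly6G+ vehicle, against 5.59 and 5.24 TPM in HSCP Mdivi-1 and vehicle, while its S-phase paralog Rrm2 was lower in Ly6G+ cells. With Mdivi-1 in Ly6G+ cells, 54 of the 55 were tested, and 1 rose, against 2.46% of all genes. It was Clspn, a checkpoint adaptor at the fork, by 0.47 (adjusted p = 0.0457 by limma). Cdc25a (-0.38, 0.0358), Rnaseh2c (-0.36, 0.0465) and E2f8 (-0.34, 0.0425) fell, against 4.24% of all genes. The other 50 did not pass, and the median of the list was -0.04. These adjusted p-values lie close to the threshold, and whether the calls hold under the alternative settings is not given here. In HSCPs 46 of 54 had a ratio above 0, against 57.3% of all genes, with a median of 0.12. Cad was the only one past 1.5-fold, at 0.75. Cad also varied within an arm, at 16.5 and 9.1 TPM in the Ly6G+ vehicle libraries, so little is read from its ratio.

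Among genes that brake the G1/S step, 10 were tested, and 6 of them were higher in Ly6G+ cells, against 22.2% of all genes. These were the antiproliferative Tob1 (1.67), Btg2 (1.59) and Btg1 (1.52), the Cdk inhibitor Cdkn1b (1.11), and the pocket proteins Rb1 (0.70) and Rbl2 (0.46). The repressor E2f4 (-0.87) and the Cdk inhibitor Cdkn2c (-0.34) were lower, and the other 2 did not pass. With Mdivi-1 in Ly6G+ cells Btg1 rose, to 108 and 111 TPM with Mdivi-1, against 67.0 and 63.2 TPM with vehicle, or 0.75 ± 0.0604 (SE, adjusted p = 0.0073 by limma), and the other 9 did not pass. Of 30 genes of G2 and mitosis, 24 were lower in Ly6G+ cells, against 50.3% of all genes, and 6 did not pass, with a median of -0.45. With Mdivi-1, Cenpf, Ube2c, Cdc20 and Ccnb2 fell in Ly6G+ cells, where 4.24% of all genes fell. In HSCPs 29 of the 30 had a ratio above 0, against 57.3% of all genes, with a median of 0.15.

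Markers of cell types also differed between the groups compared, and their part in the replication results was not tested. The genes that define the labels differed in the matching direction. Kit, which encodes CD117, was at 8.73 to 14.1 TPM in Ly6G+ libraries, against 64.9 and 72.2 TPM in HSCP Mdivi-1 and vehicle. Ly6g was at 642 to 839.8 TPM, against 90.1 and 187 TPM. The HSCP libraries also held many granule transcripts, so they are not read as pure stem and progenitor cells. Their secondary granule sums were 30920.1 TPM (Mdivi-1) and 32541.9 TPM (vehicle), against 61332.5 to 78649.5 TPM in Ly6G+ libraries. Camp, of that list, overlapped between populations, at 8084.0 and 9477.4 TPM in HSCP Mdivi-1 and vehicle, against 8722.9 to 15008.4 TPM. Of the HSCP markers 12 of 12 were lower in Ly6G+ cells, with sums of 148 to 211 TPM, against 702 and 780.4 TPM in HSCP Mdivi-1 and vehicle. The late neutrophil list was higher in 14 of 14, and primary granule genes, which mark early granulocyte precursors, were lower in 5 of 7, with sums of 2312 to 2398.5 TPM, against 16089 and 14941.9 TPM.
Within Ly6G+ cells, late neutrophil genes rose with Mdivi-1 in 11 of 14, with sums of 43939.1 and 43591.3 TPM with Mdivi-1, against 29335.2 and 29334.9 TPM with vehicle. Early B cell genes fell in 11 of 14 (sums of 30.8 and 32.4 TPM, against 168 and 169 TPM), megakaryocyte genes in 10 of 12, basophil and mast cell genes in 7 of 7 and dendritic cell genes in 7 of 11. Over the same libraries the primary granule sum was 2350.3 and 2352.5 TPM with Mdivi-1, against 2312 and 2398.5 TPM with vehicle, and its arms overlapped. The replication sum, 1870.4 and 1880.5 TPM with Mdivi-1, against 1894.3 and 1951.2 TPM with vehicle, was lower in both Mdivi-1 libraries. The median log2 change of the replication genes in Ly6G+ cells was -0.033 as deposited and 0.03 with median-of-ratios scaling. No direction is therefore read from that sum. Of the other lists, with Mdivi-1 in Ly6G+ cells, HSCP markers fell in 5 of 12, primary granule genes in 1 of 7 and erythroid genes in 4 of 12. Secondary granule genes rose in 3 and fell in 6 of 10, monocyte genes rose in 1 and fell in 2 of 10, and T and NK cell genes rose in 1 and fell in 1 of 8. Between populations, Ly6G+ cells were higher for secondary granule genes in 10 of 10, higher in 7 and lower in 2 of 10 monocyte genes, and lower in 10 of 12 erythroid genes. T and NK cell genes were higher in 5 and lower in 1 of 8, basophil and mast cell genes higher in 4 and lower in 2 of 7, and megakaryocyte genes higher in 4 and lower in 5 of 12. Dendritic cell genes were higher in 2 and lower in 7 of 11, and early B cell genes higher in 1 and lower in 3 of 14.
In HSCPs the late neutrophil sum was 2251.2 TPM with Mdivi-1 and 2840.4 TPM with vehicle. Most of that sum was Retnlg, at 1422.1 TPM with Mdivi-1 and 1902.1 TPM with vehicle. Of 13 late neutrophil genes compared, 6 had a ratio above 0, and 2 were past 1.5-fold higher and 1 past 1.5-fold lower. The HSCP marker sum was 702 TPM with Mdivi-1 and 780.4 TPM with vehicle, with 4 of 12 genes past 1.5-fold lower. The megakaryocyte sum was 231 TPM with Mdivi-1 and 416 TPM with vehicle (8 of 10 past 1.5-fold lower), the dendritic sum 1034.9 and 1658.1 TPM (4 of 7), and the early B cell sum 68.5 and 107 TPM (3 of 5). The basophil and mast cell sum was 199 TPM with Mdivi-1 and 268 TPM with vehicle (2 of 5), while the erythroid sum was 3936.7 and 3786.3 TPM (0 of 12) and the primary granule sum 16089 and 14941.9 TPM (0 of 7). Their part in the replication ratios of HSCPs was not tested.

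**Figure D5:**
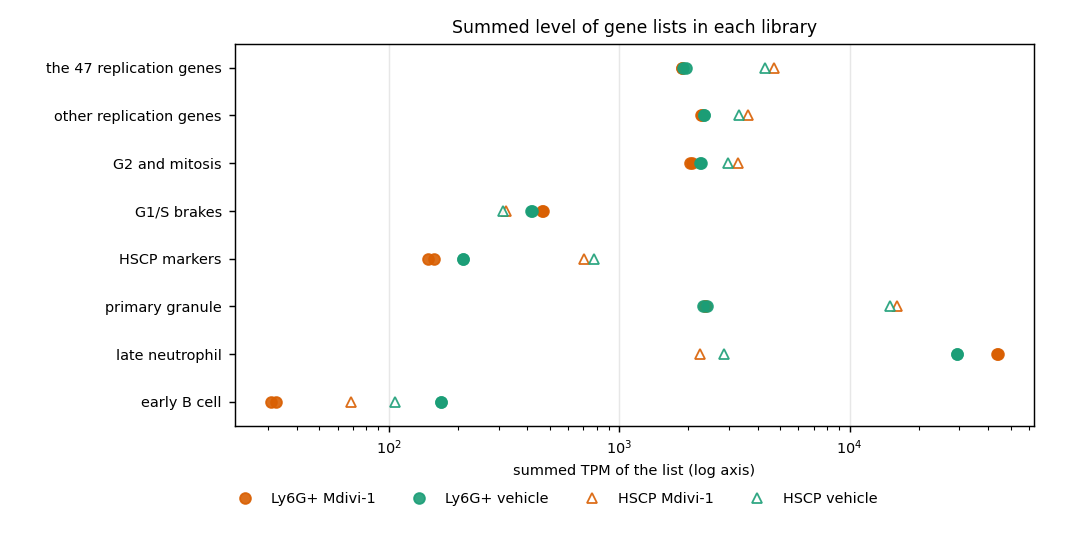
Summed TPM of gene lists in each library on a log axis, with Ly6G+ libraries as filled circles and HSCP libraries as open triangles. The 47 replication genes and the primary granule genes lie close together over the 4 Ly6G+ libraries, whereas the late neutrophil sum (43591.3 and 43939.1 TPM with Mdivi-1, 29334.9 and 29335.2 TPM with vehicle) and the early B cell sum separate the Ly6G+ arms.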

How the data were processed

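The authors deposited 1 table of gene-level TPM for the 6 libraries, with sums of 963243.1 to 979168.3 TPM and 11456 to 11930 genes at 1 TPM or more per library. Per the submitters' processing notes, bcl2fastq, CASAVA 1.8 and kallisto were used with build mm10. The kallisto version, annotation and strand are not stated in the sources used here. Since TPM holds no read totals, the depth is unknown and counting intervals cannot be given. Ensembl identifiers were matched to symbols and positions of an mm10 annotation for 27458 genes, and 9040 of the 28987 genes were at 0 in every library.

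Tests on log2(TPM + 1), a scale that understates changes of low genes, were run with limma 3.58.1 (R 4.3.3). A trended, robust prior was used, over genes that reached 1 TPM in 2 or more of the compared libraries, with Benjamini-Hochberg adjustment over all genes tested and a threshold of 0.05. The Ly6G+ treatment test used 4 libraries (2 residual degrees of freedom). The population test used all 6 with treatment as a covariate (3 residual degrees of freedom). It assumes the same Mdivi-1 effect in both populations, and any difference in that effect enters its error. HSCP arms gave log2 ratios only, at a mean of at least 5 TPM. All 47 genes passed the filters. The tests were also run on simulated data. The changes planted there were larger than any Mdivi-1 change of the 47 genes in Ly6G+ cells, so changes that small were not checked. No pair of libraries held identical values, and Pearson's r across genes was 0.987 and 0.988 within the Ly6G+ Mdivi-1 and vehicle pairs.

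The 47 genes, their 9 roles and the 14 comparison lists were chosen with earlier results of these data known. Genes given in every library are, in each role, the most abundant and the one with the largest change in each comparison; Orc1, Gins4 and Pold3 were added after their values were seen. The share of 31-base words that occur in a single gene was computed from the annotated transcripts. It was under 80% for 6 of the 47 genes, and 16 overlap an exon of another gene on the opposite strand, whose reads cannot be told apart without strand. Alternatives were scaling (median of gene ratios, upper quartile), pseudocount, filter, prior, each library left out and a replicate block.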

Additional observations from a re-analysis of the deposited data

Results flagged for a closer look

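In 11 of the 47 genes both Ly6G+ Mdivi-1 libraries lay below both Ly6G+ vehicle libraries while the ratio of the HSCP libraries, Mdivi-1 over vehicle, was above 0, a pattern that 17.0% of 9461 genes and 23.4% of the 47 showed. Under median-of-ratios scaling, a check added after the data were seen, Mcm2, Mcm5, Rfc3, Rfc5 and Tk1 kept it (5 of the 47, against 9.8% of all genes) and the other 6 did not. The difference was not tested, since each HSCP arm held 1 library. The Ly6G+ change minus the HSCP ratio, on the log2(TPM + 1) scale, was -0.48 for the clamp loader subunit Rfc5 and -0.44 for the GINS subunit Gins2. It was -0.30 for Chaf1a, -0.28 for Mcm2, -0.26 for Mcm5, -0.25 for Tk1, -0.24 for Pold1 and -0.22 for Rfc3. The smallest were -0.19 for Slbp, -0.16 for Cdc6 and -0.13 for Mcm3. None of these 11 genes passed the test in Ly6G+ cells.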

How the results depend on the processing

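All 47 genes stayed lower in Ly6G+ cells than in HSCPs under every setting run. Their median was -0.875 with median-of-ratios scaling, -0.920 with upper-quartile scaling, -1.292 with a pseudocount of 0.1, -1.329 in Mdivi-1 libraries alone, and -1.329 to -1.168 with 1 library left out. Across settings the weakest calls were Pold3 (adjusted p = 0.0332 by limma) and Gins4 (0.0212). Between populations, genes called higher and lower numbered 2736 and 6202, against 4086 and 4283 with median-of-ratios and 3915 and 4547 with upper-quartile scaling.

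For Mdivi-1 in Ly6G+ cells, 290 genes were called higher and 499 lower. Scaling gave 392 and 364 (median of ratios) or 379 and 377 (upper quartile). The counts were 104 and 114 with no filter, 126 and 220 with a plain prior, 17 to 116 and 5 to 163 with 1 library left out, and 152 and 173 with the replicate block. Tipin was lost, leaving 0 replication genes called, with no filter, the plain prior, the block and each library left out (0 to 0). Whether same-numbered Ly6G+ libraries share more than a number is not stated in the labels. Their deviations correlated at -0.0269 over 12338 genes and at -0.305 over the 47, which cannot settle it. HSCP libraries carry no such pairs. No result turned its call round, and the cause of these shifts was not tested.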
